A study of Mus musculus with 28 samples.

Results

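Mouse Xen-eyfp cells, a line of extraembryonic endoderm stem cells, were cultured for 96 h in medium alone (Media) or in medium with recombinant Cripto protein at 100 ng/ml, and their expression was compared on arrays. The comparison holds the 5 arrays labelled with Cripto and the 5 labelled Media, 10 of the 28 arrays of the series, chosen from the treatment labels alone. The other arrays carry RNA of the same line, also at 96 h, after 50 ng/ml recombinant Nodal (5 arrays), after the inhibitor SB431542 alone (5), after Nodal with SB431542 (3) and after 100 ng/ml Cripto with SB431542 (5). The labels give no deletion or transgene beyond the reporter in the name of the line, the dose of SB431542 is not given, and all cells come from 1 line. Nothing in the labels says that the arrays of a group are separate cultures. The spread behind every p-value is that between these samples, and it may be technical.

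XEN cells derive from the primitive endoderm, the lineage that lines the early blastocyst cavity and forms the visceral endoderm around the embryo and the parietal endoderm against the trophoblast. Cripto is an EGF-CFC protein, held at the cell surface by a lipid anchor or shed, which serves as a co-receptor that lets Nodal bind the activin receptor Alk4 and phosphorylate Smad2 and Smad3. Soluble Cripto is also known to bind glypican-1 and to act through Src and the ERK kinases, and SB431542 inhibits the kinase of Alk4 and its closest relatives.

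Each array gave a signal for 45281 probes, of which 18471 passed a detection filter and gave 9951 named genes, 1 probe each. The arrays differed in brightness: the mean raw signal was 442.1 ± 150.7 (SD, n = 5) in Media and 711.1 ± 269.4 in Cripto, and on the 4 BeadChips that held both groups the Cripto array was 1.14 to 1.79 times as bright as its Media array. Between 13680 and 16126 probes were detected per Media array and between 13191 and 15923 per Cripto array, and quantile normalisation then gave every array the same distribution. Over the 10 arrays, 56.3% of the variance lay on a principal component that separated Cripto from Media, and 30.9% on one that separated chips 1 to 4 from chips 5 and 6. A linear model with the treatment and the chip left 0 to 62 genes with a residual above 1 log2 unit on each Media or Cripto array. It left 330 such genes on Nodal replicate 1, against at most 115 on any other array, and that array had its highest correlation with Cripto replicate 1 (r = 0.963) and not with a Nodal array (at most 0.946). Without it 6739 genes (67.7%) were called for Cripto against Media, 6418 of them called with the same sign in the fit of all arrays, and the values of named genes and lists against Nodal are given with and without it.

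The line matched its label: all 11 primitive endoderm markers with a probe, such as Gata4, Gata6, Sox17 and Dab2, were detected on all 10 arrays, and the log2 of their summed signal ran from 17.48 to 17.62 in Media and, a little lower, from 17.23 to 17.37 in Cripto. Of the markers of other cells, Nanog, Sox2, Esrrb and Utf1 of pluripotent cells, Col1a1, Col1a2, Col3a1, Thy1, Dcn and Postn of fibroblast feeders, and Ptprc, Cd34 and Cd3e of blood were not well above background on any of the 10 arrays. The pluripotent markers Pou5f1 and Zfp42 were detected, Pou5f1 on 5 Media and 4 Cripto arrays and Zfp42 on 4 and 5. The feeder marker Twist1 was detected on 1 Media and 2 Cripto arrays. The summed levels overlapped between the groups for pluripotent cells (8.17 to 8.64 in Media and 8.11 to 8.48 in Cripto), feeders (7.58 to 8.15 and 7.63 to 7.88) and blood (6.38 to 6.91 and 6.44 to 6.73). The 4 trophoblast markers with a probe, led by Gata3, summed to 9.51 to 9.79 in Media and 7.14 to 7.82 in Cripto. In RNA of whole cultures, fewer cells of a type and less RNA per cell cannot be told apart.

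Most of the genes tested differed in expression between the Cripto and the Media arrays in the model with treatment and chip. A gene counted as called at an adjusted p under 0.05 in limma (Benjamini-Hochberg, 9951 genes). By this rule 6421 genes were called (64.5%), 3185 higher (32.0%) and 3236 lower (32.5%) with Cripto. With array brightness as a covariate 4576 genes were called (46%). The median size of the change over the called genes was 0.83 log2 units, and 28.1% of them changed by less than 1.5-fold. At least 2-fold changes were called for 2451 genes (24.6%), 1110 higher (11.2%) and 1341 lower (13.5%), and at least 16-fold changes for 24 genes higher and 31 lower. On the 4 chips that held both groups, 5774 of the called genes (89.9%) had a difference of 1 sign on every chip. The 5 Cripto values lay wholly above or wholly below the 5 Media values for 3765 genes (37.8%), 3730 of them called. More than 1 probe was detected for 2721 of the called genes. A further probe was called the same way for 1886 genes and the other way for 249. The balance of rises and falls rests on the scaling: with median centring of each array and no quantile step the median change of all genes was 0.44 and the calls were 4979 higher and 1536 lower, so 76.4% of the calls were higher against 49.6%. Changes are given below on the quantile-normalised scale, relative to a median over all genes of 0.01. The shares of 32.0% higher and 32.5% lower are the background for every count of list members below. Lists and members were chosen with earlier results of these data known, so an excess over these shares describes the lists and is no independent support. Of the genes named here, 39 lost their call or turned sign under at least 1 alternative setting, 24 of them with array brightness as a covariate and 21 with median centring, and the settings are given beside the gene where its change against Media is given.

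**Figure D1:**
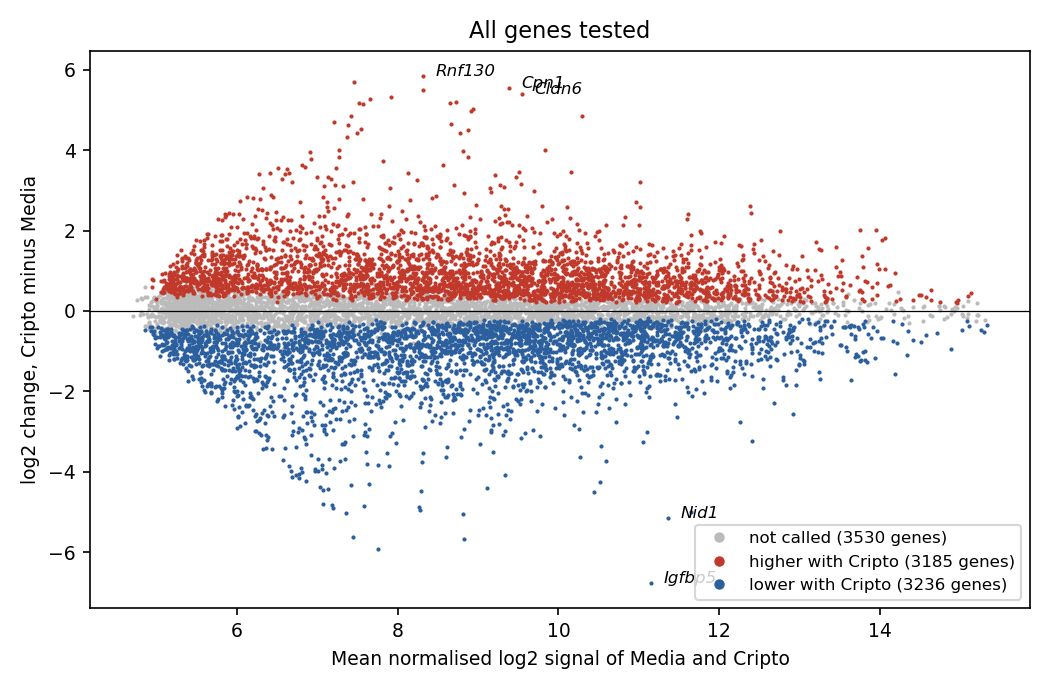
Change of each of the 9951 genes tested. The x axis is the mean normalised log2 signal over Media and Cripto and the y axis the log2 change, Cripto minus Media, with each point a gene coloured by its call. The 3185 genes called higher and the 3236 called lower lie above and below 0, and Igfbp5 lies lowest at -6.76.

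A set of genes went from background to a clear signal or the reverse. With Cripto, 121 called genes were detected on all 5 Cripto arrays and on no Media array, and 192 on all 5 Media arrays and on no Cripto array. For such genes the signal in the dim group is only a bound, and the fold is given as a lower limit against the detection floor of each array. The genes with the largest limits were Rnf130, a ubiquitin ligase (at least 42.6-fold higher), the peptidase gene Dpp4 (at least 21.8-fold higher), Grb10, an adaptor that restrains insulin-type receptors (at least 21.7-fold higher), Prxl2a, a peroxiredoxin-like protein (at least 20.1-fold higher), and the complement protease gene Masp1 (at least 19.4-fold higher). The next were the surface protease inhibitor Spint1 (at least 15.7-fold higher), the cadherin gene Cdh6 (at least 14.8-fold higher), the potassium channel gene Kcnk1 (at least 14.7-fold higher), the glutathione peroxidase gene Gpx2 (at least 13.3-fold higher) and 2410124H12Rik (at least 13.2-fold higher). In the other direction stood the membrane protein gene Tmem176b (at least 27.9-fold lower), the adhesion molecule gene Sdk1 (at least 20.2-fold lower), the kinase gene Tnik (at least 17.3-fold lower), Pmch, which encodes a neuropeptide precursor (at least 15.6-fold lower), and the collagen VI gene Col6a2 (at least 14.8-fold lower). The acetyl-CoA synthetase gene Acss1 (at least 13.3-fold lower), the aspartic protease gene Napsa (at least 12.8-fold lower), Fam151a (at least 12.7-fold lower), the lectin-like receptor gene Klre1 (at least 11.6-fold lower) and Serpinf1, which encodes the secreted factor PEDF (at least 10.7-fold lower), followed. Grb10 and Serpinf1 each had a further detected probe that changed with the same sign but was not called.

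Among the 15 largest rises whose sign was the same on every chip, 10 were detected on at least 1 array of each group. Cldn6, a claudin of epithelial tight junctions, had log2 signals of 6.67, 6.71, 6.87, 7.56 and 6.53 on Media replicates 1 to 5 and 12.11, 12.2, 12.13, 12.26 and 12.42 on the Cripto replicates. The groups were far apart and the highest Media array was replicate 4. The change was 5.39 ± 0.19 (limma standard error, as for all errors after a log2 change below), with an adjusted p of 2.01e-15. Phlda2, an imprinted gene that restrains placental growth, had 5.75, 5.96, 6.24, 6.63 and 6.05 in Media and 11.25, 11.01, 11.13, 11.69 and 11.58 in Cripto, a change of 5.21 ± 0.16. Spink1, a trypsin inhibitor of the visceral endoderm and pancreas, changed by 4.85 ± 0.12 with the smallest error of the 10. The others were the plasma carboxypeptidase gene Cpn1 (5.56 ± 0.2), the glypican gene Gpc3 (5.51 ± 0.19), the SOCS-box adaptor gene Spsb1 (5.32 ± 0.22), the amino acid decarboxylase gene Ddc (5.19 ± 0.14), the carbonic anhydrase gene Car4 (5.02 ± 0.27), the elongation factor gene Eef1d (4.99 ± 0.39) and Lypd10 (4.86 ± 0.41). Gpc3 was detected on 2 of 5 Media arrays, Spsb1 and Lypd10 on 1, and Cpn1, Ddc and Car4 on 4, so these rose from levels at or near background. The change of a gene detected on 1 or 2 arrays of a group, here and below, is a fitted value against signals near background and less certain in size. The errors of several of these genes were smaller when Nodal replicate 1 was left out of the model. Grb10 had 4.57, 4.87, 4.62, 4.56 and 4.64 in Media and 9.97, 10.15, 10.39, 10.42 and 10.43 in Cripto, with an error of 0.67. On Nodal replicate 1 it stood at 4.76 against 10.54 to 10.7 on the other Nodal arrays, and without that array its error was 0.13. The errors of Eef1d and Lypd10 were then 0.13 and 0.25.

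**Figure D2:**
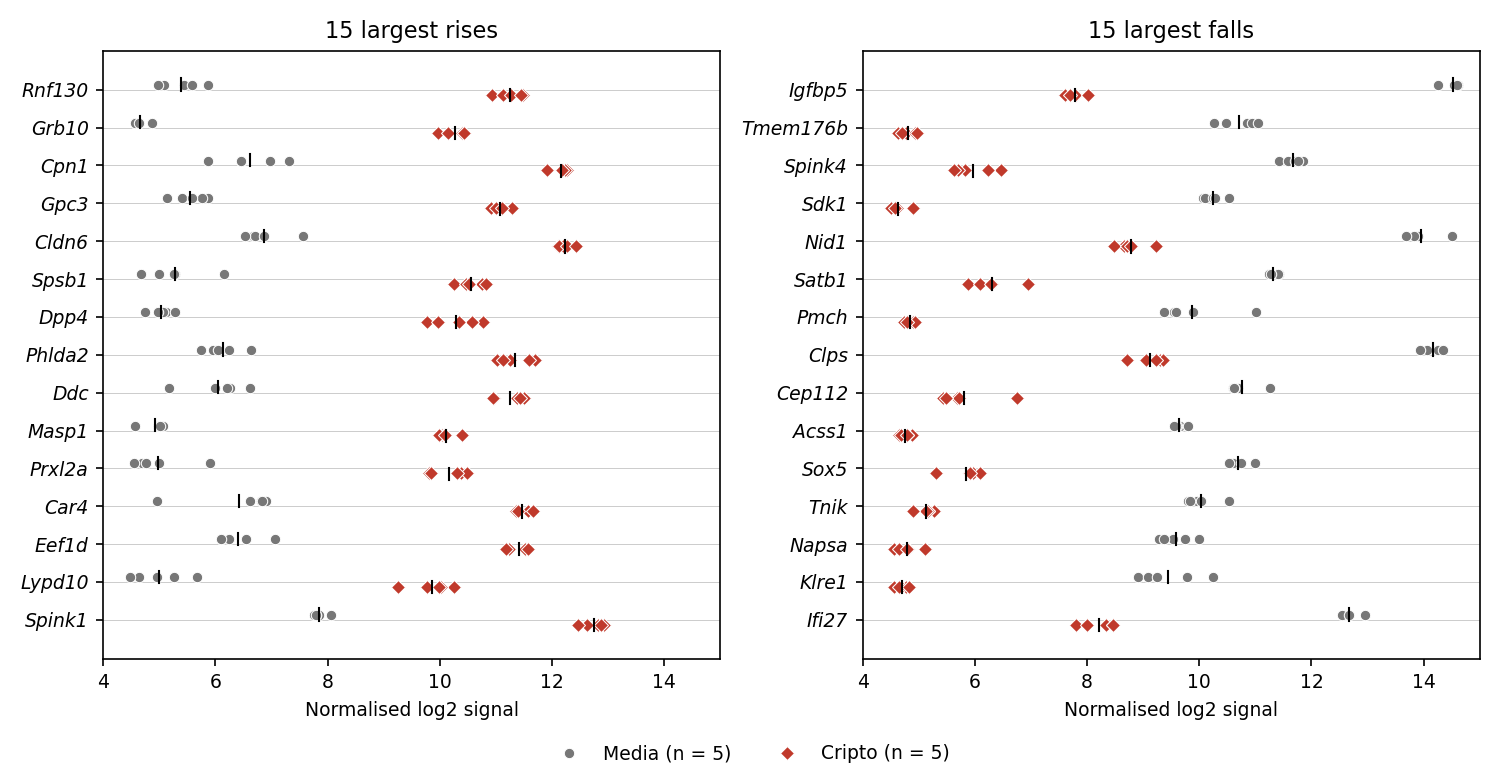
Normalised log2 signal of 30 genes, the 15 leading rises and the 15 leading falls, on every Media (grey) and Cripto (red) array, with black ticks at the group means. The Media and Cripto arrays do not overlap for any of the 30 genes, which were chosen for the size of their change. Over all genes tested, the groups did not overlap for 37.8%.

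Among the 15 largest falls, 8 were detected on at least 1 array of each group. Igfbp5, which encodes a secreted binding protein of insulin-like growth factors, was among the brightest genes in Media at 14.61, 14.62, 14.54, 14.6 and 14.26 and stood at 7.8, 7.61, 7.79, 8.02 and 7.69 with Cripto. The change was -6.76 ± 0.31, a 108-fold fall, with both further probes of the gene called the same way. Nid1, the nidogen that links laminin to collagen IV in basement membranes, was at 13.86, 13.89, 13.82, 13.68 and 14.5 in Media and 9.23, 8.66, 8.48, 8.71 and 8.79 in Cripto (-5.14 ± 0.17). Clps, the colipase gene, changed by -5.02 ± 0.17 and Ifi27, an interferon-inducible gene, by -4.5 ± 0.17, both detected on every array. Satb1, a chromatin organiser, was at 11.26, 11.43, 11.4, 11.24 and 11.28 in Media and 5.88, 6.09, 6.95, 6.3 and 6.3 in Cripto, where 4 of 5 arrays detected it (-5.06 ± 0.13). The transcription factor gene Sox5 (-4.87 ± 0.15), the centrosomal protein gene Cep112 (-4.94 ± 0.12) and the Kazal-type inhibitor gene Spink4 (-5.67 ± 0.28) were detected on 2, 2 and 3 of the 5 Cripto arrays. For Sox5 all 4 further probes were called lower too.

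The promoter windows of these leading genes were read from RefSeq (build GRCm38.p6, 250 bases before to 50 after the start). The windows of Cldn6, the gene with the largest rise among those detected on every Media array, and of Igfbp5, the gene with the largest fall are shown, with capitals marking matches to 6 short motifs on either strand. The factor AP-1 was searched as TGANTCA. The cyclic AMP response element (CRE) was searched as TGACGTCA. The Ets family was searched as CCGGAAG. Smad proteins were searched as CAGACA. For HIF the letters were ACGTG, and for the family named after the word GATA they were AGATAA. The AP-1 and CRE letters differ in length and cannot cover the same bases.
Cldn6 (chr17:23679115-23679414, plus strand): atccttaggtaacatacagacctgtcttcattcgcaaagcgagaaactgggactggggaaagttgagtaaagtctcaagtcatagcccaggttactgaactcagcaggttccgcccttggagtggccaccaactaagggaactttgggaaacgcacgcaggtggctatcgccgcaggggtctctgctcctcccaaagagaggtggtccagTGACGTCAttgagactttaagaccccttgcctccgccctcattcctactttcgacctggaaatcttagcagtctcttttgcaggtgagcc
Igfbp5 (chr1:72874816-72875115, minus strand): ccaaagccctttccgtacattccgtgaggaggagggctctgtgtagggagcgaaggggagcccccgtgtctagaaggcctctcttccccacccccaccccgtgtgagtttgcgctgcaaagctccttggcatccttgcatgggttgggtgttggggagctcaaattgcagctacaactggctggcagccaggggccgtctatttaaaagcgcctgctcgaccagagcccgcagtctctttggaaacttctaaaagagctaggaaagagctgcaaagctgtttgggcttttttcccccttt
The Cldn6 window held 1 match, the CRE letters, which 3.37% of the 8134 promoters of tested genes hold. The Igfbp5 window held no match to the 6 motifs. Of the 12 windows found for the 15 leading rises, 3 held ACGTG (26.5% of the promoters of tested genes), 3 held CAGACA (15.4%) and 1 each held the other 4 motifs. Of the 10 windows found for the 15 leading falls, 1 each held TGANTCA (4.57% of tested genes), AGATAA (6.0%) and CAGACA, and none held the other 3. These are descriptions of the letters in the windows.

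The members of the pathway to which Cripto belongs were read next, 25 of 42 being measured. Neither Tdgf1, which encodes Cripto itself, nor Nodal passed the detection filter, and the same held for the antagonists Lefty1, Lefty2 and Cer1. Of the 25 genes 10 rose, 8 fell and 7 were not called (72.0% called, against 64.5% of all genes; median -0.05, or 0 with members at background in a group set to their bound, with a sign that changed in 9 of 23 alternative settings). Cfc1, which encodes Cryptic, the other EGF-CFC protein of the mouse, was at 10.77, 10.57, 10.63, 6.65 and 6.95 in Media and 8.8, 8.2, 7.62, 5.05 and 5.07 in Cripto. Within each chip it was lower with Cripto (-2.12 ± 0.21; not called without the chip block, -2.17), but the arrays of chips 5 and 6 were low in both groups, so that the groups overlapped, and 3 of 5 Cripto arrays detected it. The ligand genes Gdf1 (-1.22) and Tgfb2 (at least 1.09-fold lower; call lost or sign turned in 12 of 22 alternative settings, at -0.87 to -0.13, among them those without Media replicates 1, 2 and 5 or Cripto replicates 1, 2 and 5) were lower too, while Tgfb1 (1.27) and the proprotein convertase genes Pcsk6 (1.54) and Furin (0.58), whose products cleave Nodal precursors, rose. Of the receptor genes, Acvr1b, which encodes Alk4, was at 6.25, 6.27, 6.27, 6.64 and 6.56 in Media and 7.11, 6.86, 7.24, 7.95 and 7.78 in Cripto (1.03 ± 0.21; not called with brightness as a covariate, 0.64), and Tgfbr2 (-1.5) and Tgfbr3 (-1.58) fell. Smad2 (-0.1) was not called, though it was called higher with median centring (0.49). Smad3 fell (-0.53; not called with median centring, 0.1, or with brightness as a covariate, -0.27). Skil, which encodes a repressor of Smads, rose (1.09), Smurf1, a ubiquitin ligase of Smads, rose (1.22), and Pmepa1, a Smad-induced inhibitor, fell (-1.3).

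Of the proteins known to bind Cripto at the surface, Gpc1, which encodes glypican-1, was at 6.12, 6.13, 6.35, 6.74 and 6.29 in Media and 8.27, 7.81, 8.59, 8.87 and 8.28 in Cripto, a rise of 2.03 ± 0.16 with no overlap. Notch1 rose (1.73; not called in the authors' deposited values, 0.51; detected on 2 of 5 Media arrays), as did the kinase gene Src (0.64). Hspa5, which encodes the chaperone GRP78, stood at -0.05 and was not called, though it was called higher with median centring (0.43).

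The feedback genes of the ERK pathway, which are transcribed when the pathway is active and restrain it, mostly rose: 9 of 13 measured members rose and 2 fell (median 1.04, or 0.89 with bounds), so 84.6% were called against 64.5% of all genes. Dusp4, a phosphatase of ERK, was at 5.59, 5.76, 5.32, 5.2 and 5.74 in Media, where 1 array detected it, and 8.76, 9.49, 8.99, 8.35 and 8.54 in Cripto. Dusp6 went from 7.43, 7.13, 7.19, 7.58 and 7.68 to 8.9, 8.49, 8.94, 8.9 and 8.95 (1.42 ± 0.12), with all Cripto arrays above all Media arrays. The Ets factor genes Etv4 (at least 3.01-fold higher) and Etv5 (at least 2.59-fold higher) were detected on no Media array, and the adaptor genes Spry4 (1.67) and Spred1 (1.04) on 1. The 2 members that fell were Dusp1 (-0.45; not called with median centring, 0.19, or with brightness as a covariate, -0.23) and Il17rd (-1.3), and Spry2 and Spred2 were not called.

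Of 13 immediate early genes 7 rose and 2 fell (median 0.54), and the share called, 69.2%, was near the 64.5% of all genes. Atf3, a stress-induced factor of the CRE-binding family, was at 5.62, 5.57, 5.92, 6.39 and 6.32 in Media and 9.52, 9.63, 9.64, 9.75 and 9.87 in Cripto (3.74 ± 0.19), and Klf6 went from 9.64, 9.72, 9.54, 9.86 and 9.83 to 11.78, 11.8, 11.95, 11.89 and 12.08 (2.15 ± 0.15). Myc, detected on no Media array, was at least 1.72-fold higher, and Junb (1.52), Ier3 (1.61), Fosb (1.42; detected on 2 of 5 Media arrays) and Fos (0.54) rose. Klf4 (-1.51) and Fosl2 (-1.03; not called with median centring, -0.43, or with the probes averaged, 0.14) fell, and Egr1 (0.16), Jun (0.34), Jund (0.24) and Klf2 (0.07) were not called. With median centring Egr1 (0.79), Jun (0.66) and Jund (0.62) were called higher. Egr1 (0.6) and Jund (0.74) were also called higher with brightness as a covariate, and Jun without Media replicate 5 (0.52) or Cripto replicate 5 (0.465).

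In the BMP pathway 5 of 13 measured genes rose and 3 fell (median 0.23, of opposite sign with array brightness as a covariate), and the share called, 61.5%, was near that of all genes. Id1, an inhibitor of basic helix-loop-helix factors induced by BMP, was at 7.01, 6.75, 7.21, 7.91 and 7.32 in Media and 8.97, 8.86, 9.25, 9.37 and 9.51 in Cripto (1.95 ± 0.16). Id3 was at least 1.78-fold higher and the ligand gene Bmp6 at least 3.25-fold higher, and the antagonist genes Chrd (1.39) and Nog (0.67) rose. Wnt pathway genes were lower in 10 of 20 cases and higher in 2 (median -0.39, or -0.29 with bounds, of opposite sign with median centring, where 6 rose and 7 fell). Axin2, a feedback target of the pathway, was at 8.54, 8.45, 8.04, 8.72 and 8.32 in Media and 4.83, 5.28, 5.41, 5.1 and 5.79 in Cripto, where no array detected it (at least 5.65-fold lower). Wnt6 was at least 4.12-fold lower, and Dkk3 (-3.04), Tcf7l1 (-1.85) and the receptor gene Fzd5 (-1.72) fell, while the ligand gene Wnt7b (2.53) and Fzd2 (1.26; not called with brightness as a covariate, 0.62) rose. The pathway's core genes Ctnnb1 (0.04), Apc (-0.08) and Axin1 (-0.05) were not called. Ctnnb1 was called higher with median centring (0.59) and lower with the probes averaged (-0.49). Axin1 was called higher in both of these settings (0.58 and 0.31).

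Of the growth factor receptors and their ligands, 2 of 11 measured rose and 4 fell (median -0.16, or -0.09 with bounds, of opposite sign with median centring). Fgfr2, an FGF receptor, was at 5.42, 5.24, 5.3, 5.44 and 4.81 in Media, where no array detected it, and 8.94, 9.73, 9.26, 9.39 and 9.2 in Cripto (at least 11.1-fold higher). Pdgfa rose (0.9), and Fgf10 (-2.3), Kit (-1.04) and Pdgfra, a receptor and marker of primitive endoderm (-0.52; call lost or sign turned in 3 of 23 alternative settings, at -0.54 to 0.04), fell. LIF and JAK-STAT signalling had 7 members higher and 2 lower of 12 (median 0.56, or 0.43 with bounds). Tfcp2l1 (1.97), Pim3 (1.49), Lif (1.15) and the feedback inhibitor gene Socs3 (0.74) rose, and the kinase gene Jak1 (-3.29; detected on 4 of 5 Cripto arrays) and Stat3 (-0.54; not called with median centring, 0.04, or with brightness as a covariate, -0.27) fell.

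Transcription factors that define the lineage changed in part. Of 14 measured regulators of primitive endoderm 3 rose, 5 fell and 6 were not called (median -0.07, of opposite sign with median centring, where 9 rose and 1 fell). Gata6 was at 13.35, 13.21, 13.31, 13.28 and 13.45 in Media and 13.22, 13.13, 13.39, 13.2 and 13.3 in Cripto (-0.09), and the arrays of the groups overlapped. Gata4 (-0.06), Sox17 (0.15) and the adaptor gene Dab2 (-0.13) were not called either. With median centring Gata6 (0.43), Gata4 (0.57), Sox17 (0.68) and Dab2 (0.4) were called higher. With the probes averaged Gata6 was called lower (-0.35). Sox7 (-1.41) and Foxa2 (-0.65; not called with median centring, -0.03) fell, and Foxq1 (1.54) and Hnf4a, a regulator of the visceral endoderm (0.68), rose.

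Genes of the visceral endoderm, the layer that absorbs and exchanges nutrients, rose more often than they fell: 23 of 36 measured members rose and 9 fell (median 1.66, or 1.42 with bounds), and the median lay between 1.41 and 1.72 on each chip. All 9 surface and epithelial proteins rose (median 5.02, or 4.45 with bounds), from Ihh (0.4; call lost or sign turned in 7 of 23 alternative settings, at 0.09 to 0.42, among them those without Media replicates 2 and 4 or Cripto replicate 1), a hedgehog ligand, and Cdh1 (1.15) to Gpc3 and Cldn6. Of 7 endocytic receptors and adaptors, Lrp2 (2.22), Amn (2.29), Cubn (2.21) and the metal transporter gene Slc39a8 (at least 2.5-fold higher) rose, and Lrpap1 (-0.51; not called with median centring, -0.01, or with brightness as a covariate, -0.32) and Rab11fip5 (-0.3; call lost or sign turned in 13 of 23 alternative settings, at -0.33 to 0.31, among them those without Media replicates 2 and 4 or Cripto replicates 2, 3, 4 and 5) fell. The apolipoprotein genes did not move together. Apoe was at 6.54, 6.49, 7.03, 6.09 and 7.14 in Media and 9.66, 9.43, 9.81, 10.02 and 10.26 in Cripto (3.27 ± 0.21; detected on 4 of 5 Media arrays), and Apoa2 (2.1) and Apom (at least 3.3-fold higher) rose as well. Apoa1 went from 9.0, 8.65, 8.72, 9.53 and 9.07 to 4.8, 5.32, 5.03, 5.05 and 5.39, where no array detected it (at least 8.46-fold lower). The secreted plasma proteins were split in the same manner, 6 of 14 higher and 6 lower (median 0.17, or 0.05 with bounds): Rbp4 (at least 3.99-fold higher; not called with brightness as a covariate, 1.8) and the cathepsin gene Ctsh (2.22) rose, and Ttr (-1.7), Trf (at least 2.17-fold lower) and Afp (at least 1.67-fold lower) fell.

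**Figure D3:**
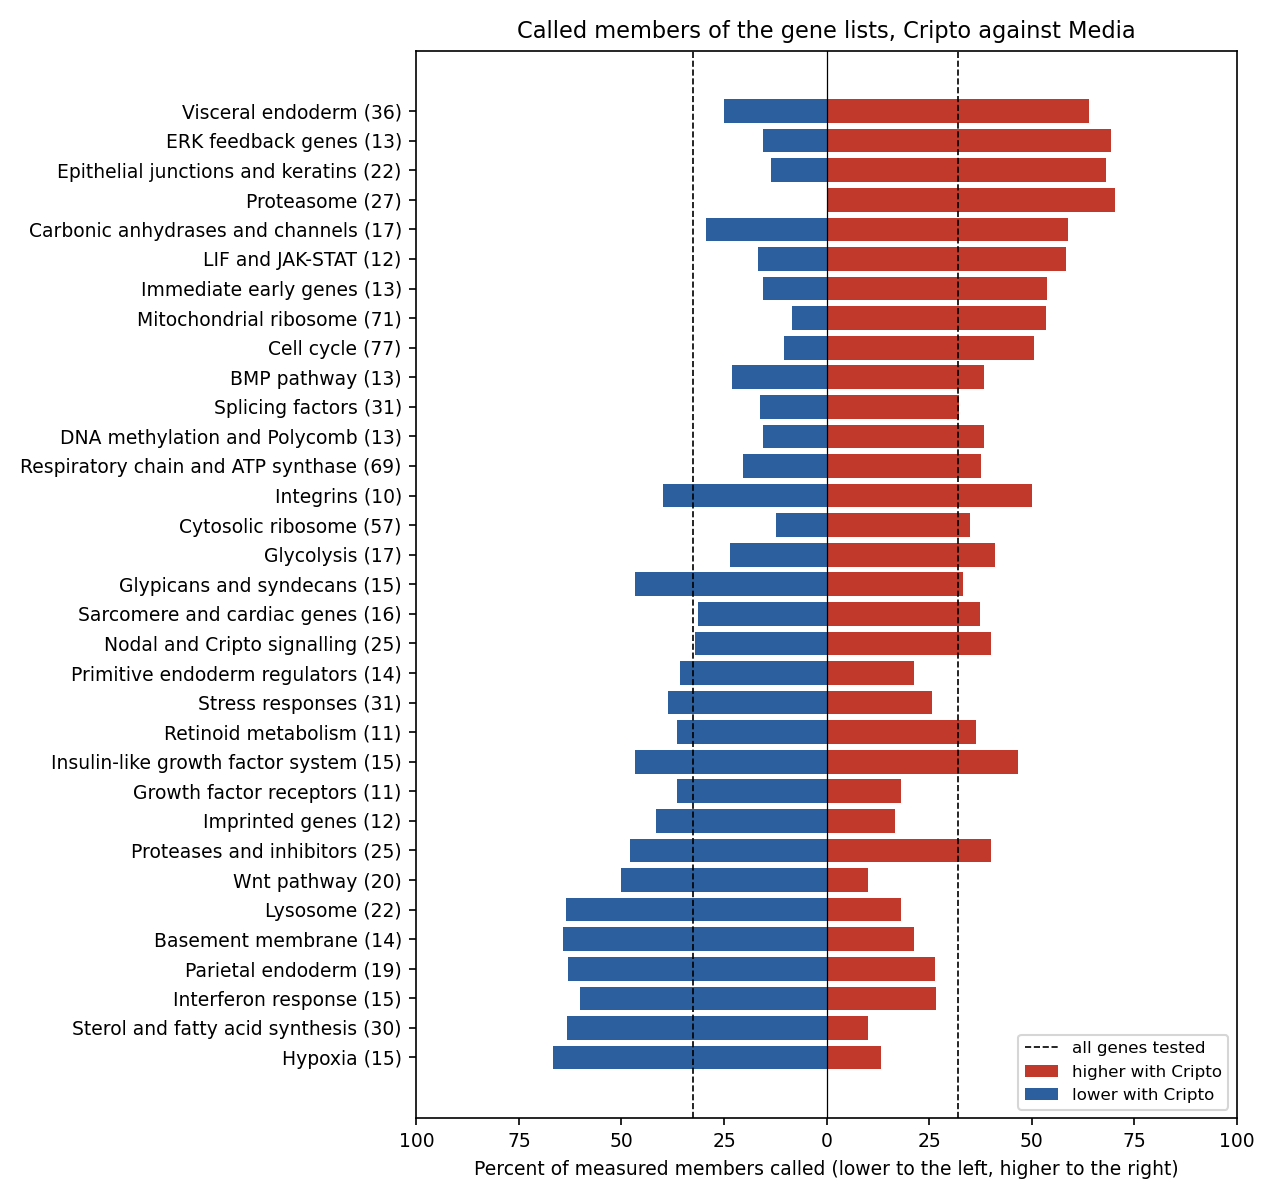
Share of the measured members of each gene list that were called higher (red, to the right) or lower (blue, to the left) with Cripto, for lists of 10 or more measured members (number in brackets), ordered by median change. Dashed lines mark the shares over all genes tested, 32.0% higher and 32.5% lower.

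Basement membrane genes fell in most cases, 9 of 14 measured against 3 that rose (median -0.49), and the genes of the parietal endoderm likewise, 12 of 19 against 5 (median -0.51). Beside Nid1, the laminin genes Lamb2 (-1.28), Lamb1 (-1.06; not called without the chip block, -1.12, or with the chip as a random block, -1.07), Lama1 (-0.51) and Lamc1 (-0.47), the perlecan gene Hspg2 (-1.34; not called with brightness as a covariate, -0.62) and the agrin gene Agrn (-1.09) fell, as did fibronectin, Fn1 (-1.7). Lama5 (1.16), Nid2 (1.14) and Col4a2 (0.83; not called with brightness as a covariate, 0.36; detected on 3 of 5 Media arrays) rose. The neighbouring collagen IV gene Col4a1 fell (-0.47; not called with median centring, -0.29). The collagen VI gene Col6a1 was at 12.51, 12.47, 12.62, 12.7 and 12.99 in Media and 7.67, 8.16, 8.5, 8.93 and 8.67 in Cripto (-4.26 ± 0.31), and Col5a1 was at least 3.9-fold lower; both stand on the list of fibroblast feeder markers, whose defining members Col1a1, Col1a2 and Col3a1 were at background in both groups.

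Epithelial junction and keratin genes were higher in 15 of 22 cases and lower in 3 (median 1.0, or 0.61 with bounds). The desmoglein gene Dsg2 was at least 5.54-fold higher, and Krt19 (1.87), Krt18 (1.65), Krt8 (0.72) and the junction adhesion gene F11r (1.17) rose, while Krt23 (-1.46) fell. Krt7, at 5.33, 5.17, 5.23, 5.25 and 5.76 in Media and 6.76, 6.5, 6.31, 7.0 and 6.93 in Cripto, was detected on no Media array and on every Cripto array (at least 1.82-fold higher). Of 8 mesenchymal genes 4 fell, Fn1, Zeb1 (-1.43), Snai1 (-1.11) and Tcf4 (-0.97; not called with median centring, -0.35), and 2 rose, Acta2 (1.03) and Vim (0.35; not called on the 8 arrays of the shared chips, 0.34). Of 10 integrin genes 5 were higher and 4 lower (median 0.18, with a sign that changed in 2 of 23 alternative settings). The laminin receptor subunit genes Itga3 (2.31) and Itgb4 (2.01) rose and Itga6 (-2.08) and Itgb5 (-1.83) fell. Among 15 glypicans, syndecans and heparan sulfate enzymes 5 rose and 7 fell. Sdc1 was at least 2.37-fold higher and Sdc3 at least 2.57-fold lower, and Gpc4 (-1.9), Ext2 (-1.76), Ndst2 (-1.9) and the sulfatase gene Sulf1 (-2.42) fell while Sulf2 (1.31; not called with the probes averaged, -0.05) rose.

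In the insulin-like growth factor system 14 of 15 measured members were called, 7 higher and 7 lower (93.3%, against 64.5% of all genes). This list holds Igfbp5 and Grb10 and was chosen with earlier results of these data known, so its share is a description only. Igf1r, the receptor gene, was at 4.67, 4.89, 5.32, 5.43 and 4.86 in Media, where no array detected it, and 8.4, 8.56, 8.85, 9.29 and 8.97 in Cripto (at least 7.88-fold higher). The ligand genes Igf1 (-2.25) and Igf2 (-2.53; detected on 1 of 5 Cripto arrays) and the insulin receptor gene Insr (-1.76) fell. The receptor substrate gene Irs2 (1.39) and the binding protein genes Igfbp2 (1.11; not called with brightness as a covariate, 0.17) and Igfbp4 (0.82) rose, both binding proteins being detected on 2 of 5 Media arrays, and Htra1, which encodes a protease that degrades binding proteins, fell (-1.44). Among 12 imprinted genes only Phlda2 and Grb10 were called higher and 5 were called lower, among them Cdkn1c (-1.33) and Peg3 (-0.93; not called with median centring, -0.33, or with brightness as a covariate, -0.48). The share of imprinted genes called was 58.3%, against 64.5% of all genes. In retinoid metabolism 4 of 11 measured genes rose and 4 fell, near the shares of all genes (32.0% and 32.5%). Cyp26a1, which degrades retinoic acid, rose (3.83 ± 0.21; detected on 1 of 5 Media arrays) and Stra6, the retinol uptake receptor, fell (-1.69). The medians of the insulin-like growth factor (-0.14, or 0 with bounds), imprinted (-0.25) and retinoid (-0.12) lists changed sign to 0.23, 0.28 and 0.09 with median centring.

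Proteasome subunits and mitochondrial ribosomal proteins rose more often than they fell. Of 27 proteasome subunits 19 rose and none fell (median 0.78, and 0.55 to 0.71 on each chip). Psmb3, a subunit of the core ring, was at 12.37, 12.44, 12.49, 12.5 and 12.59 in Media and 13.79, 13.91, 13.95, 14.21 and 14.2 in Cripto (1.55 ± 0.11), with no overlap, and the regulatory subunit genes Psmc5 (1.14) and Psmd2 (1.03) rose. Of 71 mitochondrial ribosomal proteins 38 rose and 6 fell (median 0.38). Mrpl22 (1.34), Mrps23 (1.33) and Mrpl12 (1.26) had the largest rises among members detected on all arrays, and Mrps34 (-0.83; not called with median centring, -0.26, or with brightness as a covariate, -0.48) the largest fall. Cytosolic ribosomal proteins (20 of 57 higher, 7 lower, median 0.12) and subunits of the respiratory chain and ATP synthase (26 of 69 higher, 14 lower, median 0.19) were called in 47.4% and 58.0% of cases and splicing factors (10 of 31 higher, 5 lower) in 48.4%, against 64.5% of all genes.

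Of 77 cell cycle genes 39 rose and 8 fell (median 0.29). None of the 25 mitotic genes fell and 13 rose, among them Aurka (1.64), Kif11 (1.6), Cdk1 (1.56) and Top2a (1.3; not called with brightness as a covariate, 0.09, or with the probes averaged, 0.41). Of 32 replication genes 17 rose, led by Rrm1 (1.77) and Orc1 (1.44), and 4 fell. The cyclin genes Ccnd2 (2.59) and Ccne1 (2.02) rose together with the inhibitor genes Cdkn2a (2.72; detected on 2 of 5 Media arrays) and Cdkn1a (0.85), while the inhibitor genes Cdkn2b (-2.14) and Cdkn1c fell. In sterol and fatty acid synthesis 19 of 30 measured genes fell and 3 rose (median -0.67, or -0.58 with bounds). With median centring 12 fell and 8 rose. None of the 17 cholesterol genes rose on the quantile-normalised scale, and Msmo1 (-1.42), Fdps (-1.31; not called with brightness as a covariate, -0.92) and Mvd (-1.28) fell, as did the desaturase genes Scd1 (-1.7) and Scd2 (-1.2). Ebp (0.69), Pmvk (0.76) and Hsd17b7 (0.61), also of cholesterol synthesis, were called higher with median centring. Stard4 (0.89) and the regulator gene Srebf1 (1.09) were called higher there too. Lysosomal genes fell in 14 of 22 cases and rose in 4 (median -0.45, of opposite sign with median centring, where 6 rose and 6 fell). The glucuronidase gene Gusb was at least 4.41-fold lower and the hexosaminidase gene Hexa fell (-2.4), whereas the acid lipase gene Lipa (2.19) and the proton pump gene Atp6v1a (1.25) rose.

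Interferon response genes were lower in 9 of 15 cases and higher in 4 (median -0.67, or -0.37 with bounds). With median centring 7 fell and 6 rose. Usp18 (at least 3.27-fold lower), Irf9 (-1.65) and Stat2 (-1.31) fell, and Ifitm3 (3.21) and Ifitm1 (1.7) rose. Stress response genes were mixed (8 of 31 higher, 12 lower, median -0.11, of opposite sign with median centring), with the serine synthesis genes Phgdh (1.79) and Psat1 (1.73) higher and Atf4 (-0.83; not called with median centring, -0.3), Herpud1 (-0.99) and Dnajb9 (-0.97; not called with median centring, -0.36) lower. Of 13 DNA methylation and Polycomb genes 5 rose, led by Dnmt3l (2.29) and Dnmt3b (1.64), and 2 fell. Among 17 carbonic anhydrases and channels the intracellular chloride channel genes Clic6 (4.5) and Clic3 (2.41) and Car12 (2.13) rose, and Aqp8 (-2.76), Aqp1 and Car11 (at least 3.17-fold lower) fell. Among 16 sarcomere and cardiac genes Tnnc1, which encodes a troponin, had the largest rise, from 6.03, 6.54, 5.92, 6.99 and 6.24 in Media to 10.93, 10.66, 10.83, 11.32 and 11.14 in Cripto (4.66 ± 0.21), and Mef2c fell (-2.84; detected on 1 of 5 Cripto arrays). Ikzf1, a zinc finger factor of lymphoid cells, was at least 8.53-fold lower.

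Hypoxia genes, the targets of the HIF factors and the oxygen sensors that control them, fell in 10 of 15 measured cases and rose in 2 (median -0.84, and -1.31 to -0.80 on each chip), against 32.5% and 32.0% of all genes. With median centring 6 fell and 3 rose. Ndrg1, a stress-responsive HIF target, was at 12.9, 12.89, 12.82, 12.42 and 13.13 in Media and between 9.93 and 11.71 in Cripto, with a median of 10.97 (-2.04 ± 0.25). Pdk1, a kinase that holds pyruvate out of mitochondria, was at 9.32, 9.36, 9.42, 8.93 and 9.35 and 7.04, 7.06, 7.3, 7.5 and 7.6 (-1.93 ± 0.44), and both genes had every Cripto array below every Media array. Adm (-2.63; detected on 4 of 5 Cripto arrays), the prolyl hydroxylase gene Egln1 (-1.74), the demethylase gene Kdm3a (-1.48), Vegfa (-1.24) and Ankrd37 (-1.02; not called with median centring, -0.42) fell. Egln3, another prolyl hydroxylase gene, was called lower (-0.84 ± 0.27; not called with median centring, -0.29, or with the probes averaged, -0.42), but Cripto replicate 2 at 11.94 lay above the highest Media array (11.91), so the groups overlapped. Ddit4 (0.4; not called with brightness as a covariate, 0.22) and P4ha1 (0.23; call lost or sign turned in 14 of 23 alternative settings, at -0.51 to 0.23, among them those without Media replicates 2, 3, 4 and 5 or Cripto replicates 1, 3 and 4) rose, and Hif1a (0.45), Epas1 (0.18) and Bnip3 were not called. With the probes averaged P4ha1 was called lower (-0.51). Epas1 was called higher with median centring (0.81) and with the probes averaged (0.44). The glycolytic enzymes, some of which are HIF targets, rose in 7 and fell in 4 of 17 cases (median 0.11, or 0.02 with bounds), with Pkm (1.27) and Ldha (0.9) higher and Eno2 (-1.44) and Pfkm (-1.4) lower.

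The core letters of the HIF response element, ACGTG, were counted in the promoters of the hypoxia list, because 10 of its 15 measured members fell. They occurred in 8 of the 13 windows found (61.5%, against 26.5% of the promoters of tested genes), and in 4 of the 9 windows of members that fell. Every window found for the other members (Hif1a, Bnip3, P4ha1 and Ddit4) held them, so the letters were not particular to the members that fell. Windows of 2 members that fell are shown, with capitals on ACGTG or its reverse complement.
Egln3 (chr12:54203825-54204124, minus strand): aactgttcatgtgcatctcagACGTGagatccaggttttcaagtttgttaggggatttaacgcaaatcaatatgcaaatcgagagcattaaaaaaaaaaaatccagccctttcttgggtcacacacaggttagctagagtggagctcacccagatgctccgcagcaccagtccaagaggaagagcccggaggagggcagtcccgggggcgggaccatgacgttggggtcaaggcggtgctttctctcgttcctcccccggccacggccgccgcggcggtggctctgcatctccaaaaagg
Ankrd37 (chr8:45999801-46000100, minus strand): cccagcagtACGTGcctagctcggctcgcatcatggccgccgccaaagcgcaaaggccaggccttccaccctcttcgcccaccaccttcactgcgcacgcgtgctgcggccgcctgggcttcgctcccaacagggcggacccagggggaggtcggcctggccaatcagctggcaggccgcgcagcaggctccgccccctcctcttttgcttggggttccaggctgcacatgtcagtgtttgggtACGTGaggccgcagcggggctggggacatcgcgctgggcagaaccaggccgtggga
The Egln3 window holds 1 match and the Ankrd37 window 2. The list was built of genes known as HIF targets, so the letters are a property of its choice.

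Cripto was compared directly with Nodal, the ligand it serves, to see where the response differed. The doses were 100 ng/ml of Cripto and 50 ng/ml of Nodal, so the comparison is of these treatments and not of the proteins at 1 dose. In limma 2495 genes differed (25.1%; 11.4% higher and 13.6% lower with Cripto), 184 of them at least 2-fold, and 2058 of the 2495 were also called against Media, where the same Cripto arrays enter. The number among the called genes was 960 with median centring and 1011 without the chip block. Without Nodal replicate 1 the number was 2863 (28.8%), 254 of them at least 2-fold, and 2113 genes were called with the same sign in both fits. The hypoxia list was lower with Cripto than with Nodal in 10 of 15 genes and higher in none (against 13.6% and 11.4% of all genes), and lower in 12 without Nodal replicate 1 (against 15.5%). Against Media, the median change of the list was -0.84 with Cripto and -0.23 with Nodal, or 0.14 with Nodal without replicate 1. Pdk1 was at 5.66, 9.41, 9.28, 9.39 and 9.57 on Nodal replicates 1 to 5, so that replicate 1 lay below the Cripto arrays and the other 4 near the Media arrays. Its difference was -1.32 ± 0.44 (adjusted p = 0.0341) with all arrays and -2.11 ± 0.13 (adjusted p = 8.88e-10) without replicate 1. Ndrg1 differed by -1.25 and -1.61, and Egln3 by -1.12 and -1.51, in the same order.

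**Figure D4:**
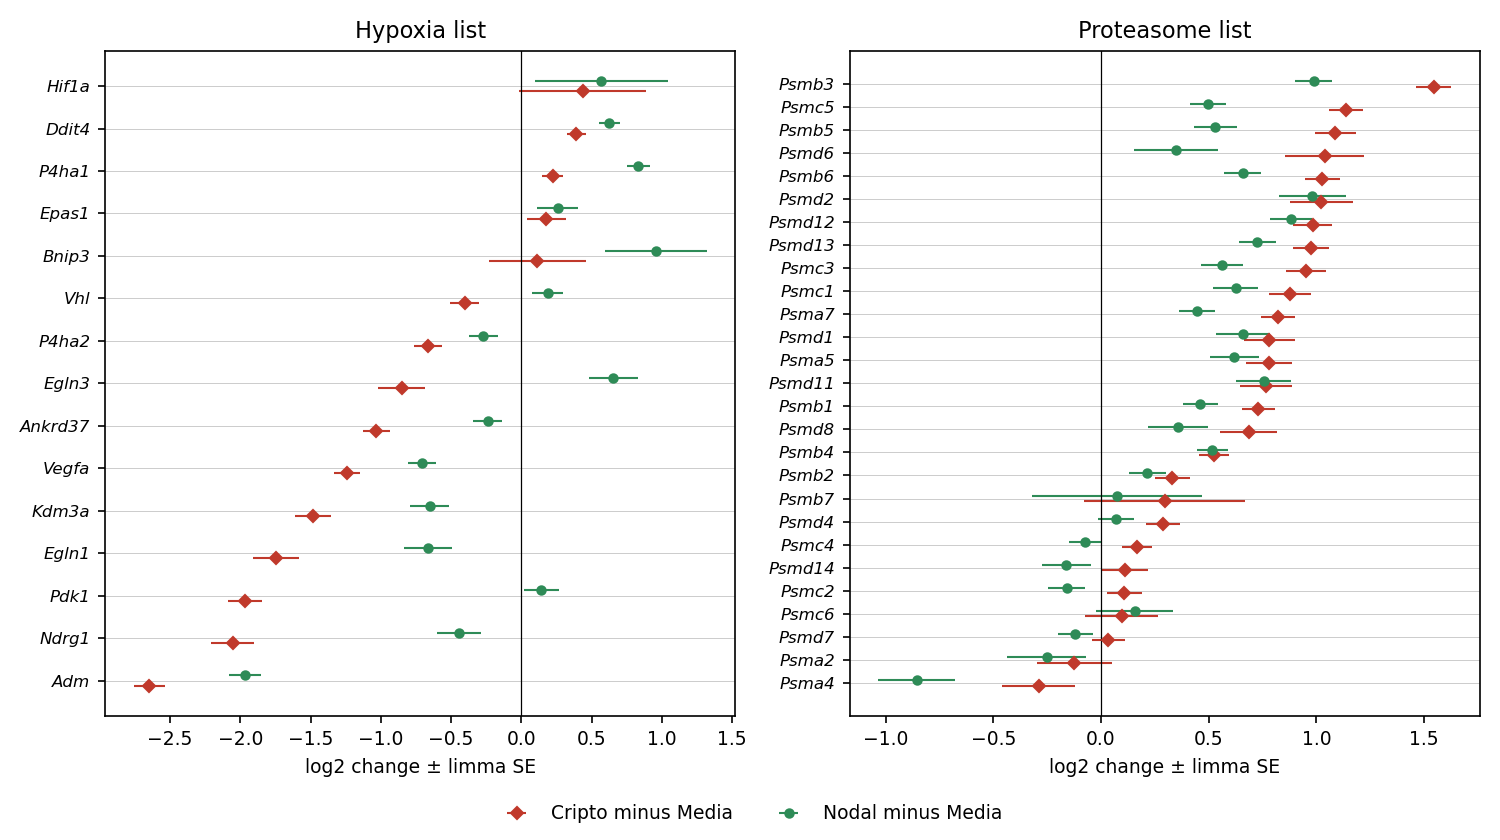
Log2 change against Media of each measured member of the hypoxia and proteasome lists with 100 ng/ml Cripto (red diamonds) and 50 ng/ml Nodal (green circles), with limma standard errors, in the fit without Nodal replicate 1. For Egln3 the change is -0.85 with Cripto and 0.65 with Nodal, and both comparisons share the Media arrays.

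The mitochondrial ribosomal proteins were higher with Cripto than with Nodal in 33 of 71 cases and lower in 2 (32 and 2 without Nodal replicate 1), and the proteasome subunits higher in 13 of 27 and lower in none (12 and none). The cell cycle list was higher in 23 of 77 and lower in 8 (23 and 6). For these 3 lists the share of all genes that was higher was 11.4%, or 13.2% without that array. Lysosomal genes were lower in 9 of 22 and higher in 1 (10 and none). Of 36 visceral endoderm genes 5 were higher and 7 lower (6 and 10). For these lists the shares of all genes were 11.4% higher and 13.6% lower, or 13.2% and 15.5% without that array.

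Among single genes, Acot7, a thioesterase of acyl-CoA, was at 7.65, 7.83, 7.72, 8.17 and 7.64 in Media, 11.01, 11.04, 11.11, 11.44 and 11.13 in Cripto and 9.12, 8.69, 8.79, 9.13 and 9.09 in Nodal, so all Cripto arrays lay above all Nodal arrays. The difference of 2.17 ± 0.11 (adjusted p = 1.90e-10; 2.26 without Nodal replicate 1) was, with all arrays, the largest of the genes higher with Cripto and also called against Media. With the value without Nodal replicate 1 given second, next came Depp1, a target of FoxO factors (1.85 and 1.74), the sarcomere gene Mybpc3 (1.63 and 2.0), the netrin receptor gene Unc5b (1.63 and 1.88), Gpx2 (1.61 and 2.21) and the stress gene Gadd45b (1.6 and 1.6). Rpph1, the RNA of RNase P, and Map6, a microtubule protein, were detected on 5 and 4 Cripto arrays and on no Nodal or Media array, so they have no measured difference. Gadd45b was at 6.22, 6.16, 6.4, 6.53 and 6.6 in Media, 9.67, 9.72, 9.93, 9.82 and 10.2 in Cripto and 8.01, 8.22, 8.21, 8.06 and 8.63 in Nodal. For Gpx2, Nodal replicate 1 at 10.14 stood apart from the other Nodal arrays at 7.2 to 7.59.

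In the other direction Alpk3, an alpha-type kinase gene of muscle, had the largest difference with all arrays among genes also called against Media. Alpk3 was at 7.6, 7.63, 7.71, 8.05 and 7.49 in Media, 6.95, 6.39, 6.67, 7.07 and 7.16 in Cripto and 7.89, 9.3, 9.36, 9.78 and 9.56 in Nodal. The difference between the proteins was -2.33 ± 0.28 (adjusted p = 7.93e-06; -2.66 without Nodal replicate 1), while the fall against Media (-0.84 ± 0.28) was not called with median centring (-0.34, adjusted p = 0.321) or with array brightness as a covariate (-0.80, adjusted p = 0.142). Igfbp5 was at 7.89, 10.53, 10.27, 10.47 and 10.21 in Nodal, between Media and Cripto on 4 arrays and at the Cripto level on replicate 1 (difference -2.11, and -2.65 without it). The water channel gene Aqp1 was at 10.58, 10.7, 10.7, 10.78 and 10.37 in Media, 9.14, 7.62, 8.1, 7.77 and 7.7 in Cripto and 10.97, 10.01, 9.87, 10.03 and 9.84 in Nodal (-2.1 and -1.96). Hif3a, a HIF subunit (-2.07 and -2.12), Mgarp, a mitochondrial transport protein (-1.96 and -2.25), the lipoprotein receptor gene Vldlr (-1.87 and -2.02) and Msmb (-1.98 and -2.11) were also lower with Cripto, in the same order of values. The further detected probe of Hif3a was not called for Cripto against Media. Unc5b was detected on 2 of 5 Media arrays and Msmb on 2 of 5 Cripto arrays. Pygl, the liver-type glycogen phosphorylase gene, was detected on 4 Nodal arrays and on no Cripto array. The gelatinase gene Mmp2, named after its values were seen, was at 4.83 on that array and at 9.21 to 9.8 on the other 4, and its difference went from -2.04 (adjusted p = 0.00682) to -2.96 (adjusted p = 4.41e-10).

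The same protein was also given in the presence of SB431542, on 10 further arrays (5 with Cripto and SB431542, 5 with SB431542 alone). The groups hold no array in common with Media and Cripto, but both changes come from 1 model of all 28 arrays, with shared chip terms and a shared spread. There 6521 genes were called (65.5%). Of the 6421 genes called for Cripto against Media, 5377 (83.7%) were called with the same sign with the inhibitor, which is 82.5% of the 6521, and 20 were called with opposite signs. The sign of the change was the same for 96.8% of the 6421 genes and for 86.7% of all 9951. Cldn6 was at 6.95, 6.72, 6.51, 7.01 and 6.99 with SB431542 alone and 12.32, 12.18, 12.2, 12.29 and 12.33 with Cripto and SB431542, against 12.11, 12.2, 12.13, 12.26 and 12.42 with Cripto alone. Igfbp5 was at 14.61, 14.44, 14.6, 14.66 and 14.39 and 7.5, 7.75, 8.14, 7.8 and 8.07. In both genes the Cripto levels with and without the inhibitor overlapped. The median of the hypoxia list was -1.23 with the inhibitor and -0.84 without it, that of the proteasome 0.63 and 0.78, and that of the visceral endoderm 1.66 in both.

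**Figure D5:**
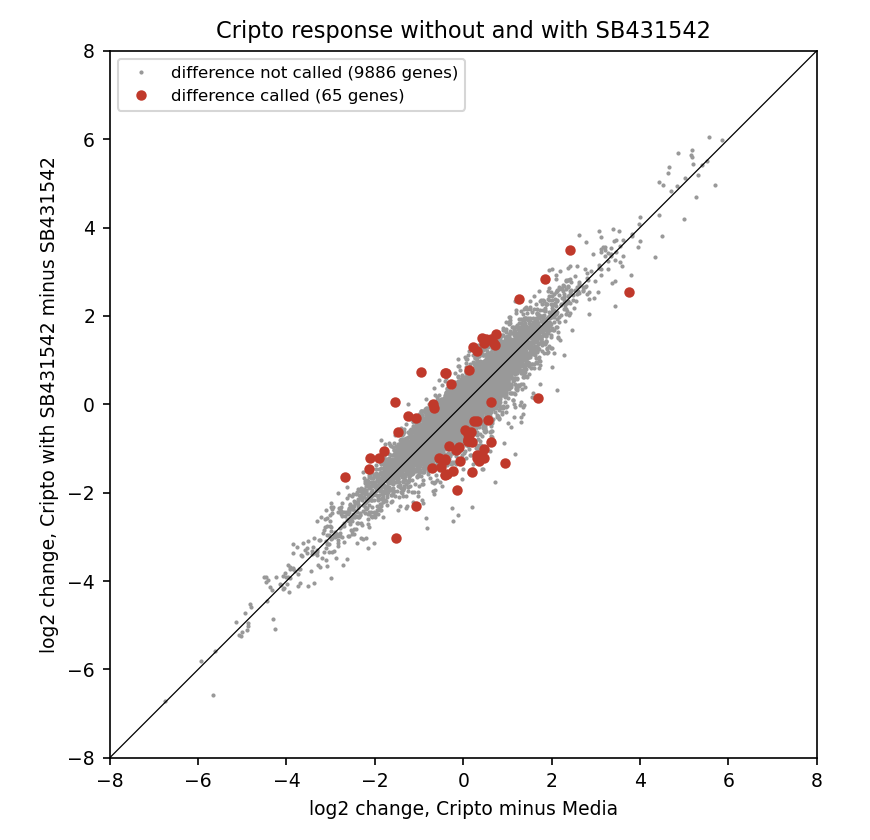
Log2 change of each of the 9951 genes with Cripto against Media (x axis) and with Cripto and SB431542 against SB431542 alone (y axis), with the line of equality; both changes come from 1 model of all 28 arrays. The 65 genes in red had a called difference between the changes, and most other genes lie around the line.

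The difference between the changes, tested as an interaction, was called for 65 genes (0.653%), 28 higher and 37 lower with the inhibitor, against 1484 at an unadjusted p under 0.05. For 80.1% of genes the 95% confidence interval of the difference lay within 2-fold. Taf15, an RNA-binding protein of the FET family, was at 8.9, 8.82, 8.92, 9.58 and 9.63 in Media and 8.1, 7.76, 8.33, 8.72 and 8.45 in Cripto, and at 8.52, 8.71, 8.96, 9.39 and 9.63 in SB431542 and 9.63, 9.21, 9.65, 10.2 and 10.15 with both. It fell without the inhibitor (-0.95 ± 0.15; not called with median centring, -0.34) and changed by 0.73 with it, a difference of 1.68 ± 0.21 (adjusted p = 5.48e-04). Prrc2c (1.61, adjusted p = 0.00692) and the signal recognition particle gene Srp54a (1.12) followed, while the DNA repair gene Aptx, called as well, was detected on at most 2 arrays of any of the 4 groups. Capza1, which encodes an actin capping protein, had the largest difference in the other direction (-2.27 ± 0.47, adjusted p = 0.0309), then the cilium gene Tmem216 (-1.81), the RNA helicase gene Ddx6 (-1.72) and Gmfg, a regulator of actin branching (-1.69). The count of 65 rests on single arrays and on the scaling, as it was 9 without Media replicate 4, 284 without Nodal replicate 1 and 2 with median centring.

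Genes of the trophoblast moved in opposite directions. Gata3, detected on every Media array and on 1 Cripto array, was at 9.51, 9.36, 9.65, 9.36 and 9.66 in Media and 5.46, 5.18, 6.12, 5.97 and 5.95 in Cripto (-3.81 ± 0.15). Cdx2, the factor of trophoblast stem cells and of the gut, was at 4.51, 4.55, 4.66, 4.76 and 4.72 in Media, where no array detected it, and 6.08, 5.83, 6.37, 6.84 and 6.59 in Cripto, where all did (at least 1.42-fold higher). On the Nodal arrays Cdx2 was at 4.98, 4.96, 5.36, 5.28 and 5.41. Plac1 (at least 2.15-fold higher) and Krt7 were higher with Cripto as well, while Elf5 and Tpbpa, defining markers of trophoblast stem cells and spongiotrophoblast, were detected on none of the 10 arrays. Of the pluripotent markers that were measured, Lin28a rose (2.15), Zfp42 rose (0.71; not called with brightness as a covariate, 0.47) and Pou5f1 fell (-0.77; not called with median centring, -0.33, or with brightness as a covariate, -0.28). The globin gene Hba-a1 fell (-2.75; detected on 1 of 5 Cripto arrays).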

How the data were processed

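RNA of Xen-eyfp cells was hybridised to Illumina mouse BeadChips, 28 arrays on 7 chips, from 200 ng of total RNA per the labels' protocols. The per-array files hold the probe intensity and the detection p-value as deposited by the authors, before normalisation, and the series table holds the authors' deposited log2 values, used as an alternative only. Per the file headers the authors also deposited bead counts and the spread of the signal over the beads of each probe, not used in tests. The submitters' processing notes name BeadStudio and lumi, and versions are not given in the sources used here. Intensities were background-corrected and quantile-normalised with neqc (limma 3.58.1 in R 4.3.3, offset 16). Probes needed a detection p below 0.01 on at least 3 arrays, and the brightest probe with 1 symbol stood for its gene, with names from the platform annotation. A limma model with treatment and BeadChip was fitted on all 28 arrays (16 residual and 4.19 prior degrees of freedom), with Benjamini-Hochberg adjusted p-values over 9951 genes. The code of the model was also run on simulated data with independent noise and few changed genes. The simulation held no brightness difference and no deviant array, so it checks the code and not the model's fit to these arrays. Precision is limited by 5 arrays a group. Chips 1, 2, 5 and 6 hold both groups. Genes named are the 15 largest called rises and falls with 1 sign on every chip, the 8 largest differences from Nodal among genes also called against Media and 4 interactions in each direction, the 10 largest switches on and off, and members of gene lists. Members and lists were chosen with earlier results of these data known, and the settings without chip 5 and without Nodal replicate 1 were chosen after seeing the data.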

Additional observations from a re-analysis of the deposited data

Results flagged for a closer look

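In 39 of 544 groups of 5 arrays, the highest or lowest array was set apart from the other 4 by more than Dixon's 95% value. The groups were the Media and Cripto values of 272 named genes. Chance flags about 1 in 20 groups if the 5 values are alike in distribution. The values were not adjusted for chip, and the 5 arrays of a group lay on 5 chips. A chip shift and a single deviant array therefore cannot be told apart here. Media replicate 2 stood apart for Grb10 (4.87, next 4.64) and Zfp42 (6.58, next 5.93). Media replicate 3 stood apart for Spred2 (6.03, next 5.32). Media replicate 4 stood apart for Aurka (10.29, next 9.9), Eno2 (11.43, next 11.04), Hba-a1 (9.11, next 8.3), Id3 (4.57, next 4.96), Pdk1 (8.93, next 9.32) and Scd1 (12.94, next 13.43). Media replicate 5 stood apart for Car4 (4.95, next 6.62), Cdkn1a (10.6, next 11.02), Cep112 (11.25, next 10.69), Hexa (8.79, next 8.58), Hif1a (8.5, next 6.17), Igfbp5 (14.26, next 14.54), Ikzf1 (10.12, next 8.92), Insr (10.06, next 9.38), Krt7 (5.76, next 5.33), Lamc1 (15.57, next 15.48), Masp1 (4.57, next 4.98) and Nid1 (14.5, next 13.89). Cripto replicate 1 stood apart for Cdk1 (11.82, next 12.13), Dnmt3b (12.26, next 12.51), Psat1 (12.44, next 12.85), Rpph1 (5.87, next 7.14) and Tcf4 (9.43, next 9.81). Cripto replicate 2 stood apart for Cpn1 (11.92, next 12.17), Dusp6 (8.49, next 8.9), Furin (11.06, next 11.46), Hspg2 (11.73, next 12.39), Kdm3a (10.18, next 9.48), Lama1 (14.81, next 15.07) and Sox5 (5.3, next 5.9). Cripto replicate 3 stood apart for Sdk1 (4.9, next 4.61). Cripto replicate 4 stood apart for Acot7 (11.44, next 11.13), Adm (6.24, next 7.37), Masp1 (10.39, next 10.08) and Ndst2 (9.26, next 8.88). Cripto replicate 5 stood apart for Cep112 (6.74, next 5.72).

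The change with Cripto differed between cells with and without SB431542, by the interaction term in limma, for Taf15 (1.68), Prrc2c (1.61), Srp54a (1.12) and Aptx (1.12), with adjusted p from 5.48e-04 to 0.0469, and for Capza1 (-2.27), Tmem216 (-1.81), Ddx6 (-1.72) and Gmfg (-1.69), with adjusted p from 0.0262 to 0.0464. Aptx was near background in all 4 groups.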

How the results depend on the processing

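The number of genes called for Cripto against Media was 5174 without the BeadChip block, 6167 with it as a random block, 5420 on the 10 arrays alone, 4576 with array brightness as a covariate, 5919 without chip 5 and 6085 to 6739 with 1 array left out, the highest being without Nodal replicate 1. With 1 array left out, 3000 to 3342 were higher, 3052 to 3397 lower and 2409 to 2562 changed at least 2-fold. Median centring gave 4979 higher and 1536 lower. At least 2-fold changes numbered 1280 without background correction and 968 in the authors' deposited log2 values. The cause of these smaller counts was not tested. Genes that differed from Nodal among those called numbered 1011 without the chip block, 960 with median centring and 1628 to 2316 with 1 array left out. Cripto with SB431542 against SB431542 gave 6033 to 6839. The interaction gave 2 genes without the chip block, 2 with median centring, 139 without background correction, 139 in the deposited values, 39 without the detection filter, 5 without chip 5, and 9 to 284 with 1 array left out. Single genes of opposite sign were, with median centring, Dusp1 (0.19), Pdgfra (0.037), Rab11fip5 (0.31), Smad3 (0.10) and Stat3 (0.043), with averaged probes Fosl2 (0.14), P4ha1 (-0.51) and Sulf2 (-0.046), and with brightness as a covariate Capza1 (-0.087); the cause was not tested. No paired analysis was possible by replicate number because the labels pair no arrays by one. The BeadChip pairs Media with Cripto on chips 1, 2, 5 and 6 and was the block in the reported model, and these 8 arrays alone gave 5495 called genes. Brightness differed between the groups, and its part in the results was not tested beyond the covariate. Genes detected on no array of a group have bounds only, and those detected on few have fitted changes against near-background signals.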
